A study of Solanum pimpinellifolium and Solanum chilense with 12 samples.

Results

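Expansins are small wall proteins that let the cellulose network of a growing plant cell slip under turgor, without cutting the polymers. Alpha-expansins are the family that acts at acid pH in growing organs and in softening fruit, while a group of beta-expansins is shed by grass pollen and loosens the walls of stigma and style. In the tomato style, pollen tubes grow through the matrix between the cells of the transmitting tract, so the wall-loosening genes of this tissue are of interest at pollination. The 8 alpha-expansin genes described here were chosen by a list of gene IDs, and all 8 were found among the 34718 genes with values. The list was used as given. The deposited table holds IDs without gene names, so the membership of each gene in the family could not be checked here. The study's own annotation covers Solyc06g051800, with the terms plant-type cell wall and plant-type cell wall organization. No individual role is given for the other members. By their IDs, 4 of the 8 genes lie on chromosome 6, and 1 each on chromosomes 2, 4, 5 and 10.

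RNA was sequenced from styles with their stigmas of 2 wild tomatoes. S. pimpinellifolium (LA1585) is self-compatible (SC), and S. chilense (LA0130) is self-incompatible (SI). In each species, styles taken 24 h after self-pollination (SCP, SIP) were set against unpollinated styles of the 24 h series (SCUP, SIUP), with 3 libraries in each of the 4 groups. The study calls these libraries biological replicates. Whether each came from different plants is not given in what was read here. The values are RPKM, for which the authors scaled a gene's reads to its length and to the library's total, so levels of different genes can be compared per length within a library. The number of reads on genes, recovered from the RPKM steps, was 12926250 to 14499207 per SC library and 10174283 to 11933635 per SI library. In bulk tissue, fewer cells of a type and less RNA per cell cannot be told apart.

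The tissue label was checked with 2 markers. Their IDs were matched to gene names from general knowledge, which no source used here checks. Solyc02g071730, taken as the AGAMOUS gene TAG1 that is active in stamens and carpels, was at 201 to 916 RPKM in all 12 libraries. Solyc10g007270, taken as the pollen gene LAT52, was the only pollen marker used. It was at 591, 1086 and 606 RPKM in SIP1, SIP2 and SIP3, above the 488, 160 and 161 RPKM in SIUP1, SIUP2 and SIUP3. In SC styles it was at 1860, 2061 and 2213 RPKM in the SCP libraries and at 1275, 3274 and 1797 RPKM in the SCUP libraries. The SCUP libraries, labelled unpollinated, thus held this marker at levels on both sides of those in SCP (a log2 difference of 0.06, 95% confidence interval -0.81 to 0.93). The sources used here do not say whether the flowers were emasculated. The share of pollen RNA in any value below was not tested.

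No alpha-expansin passed the test used here for self-pollination in either species. In SC 5 of the 8 genes were abundant enough to be tested and 0 were called, where 6.89% of all 18913 genes tested were called. The test was limma on log2(RPKM + 0.5), with a Benjamini-Hochberg adjusted p under 0.05, and a gene was tested where 3 or more libraries reached 1 RPKM. In SI 7 were tested and 0 were called, where 3.65% of 18334 genes were called. At an unadjusted p under 0.05 there were 0 of the 5 genes in SC, where 27.7% of all genes tested fell under it, and 4 of the 7 in SI, where 26.6% did. With voom on the recovered reads, ahead of the same limma fit, 0 were called in SC and in SI. There 6.47% and 4.03% of all genes tested were called. The median log2 difference of the tested members was -0.46 in SC and -0.16 in SI, against -0.12 and -0.11 over all genes tested in these species. Among the members with a higher mean in P, the largest ratio of means was that of the low-level gene Solyc06g051800. It averaged 3.54-fold higher in SIP than in SIUP, on 207 reads against 63 in all. In SC it averaged 6.94-fold higher in SCP than in SCUP, on only 60 reads against 9. The groups did not overlap in either species. All P libraries lay above all UP libraries for 11.2% of all genes tested in SI and 13.2% in SC. The study itself lists Solyc06g051800 among its differentially expressed genes. The study's rule set a minimum size of change and a p-value cutoff, and the paper describes no adjustment of those p-values. The test used here required an adjusted p under 0.05, so the 2 outcomes rest on different thresholds.

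**Figure D1:**
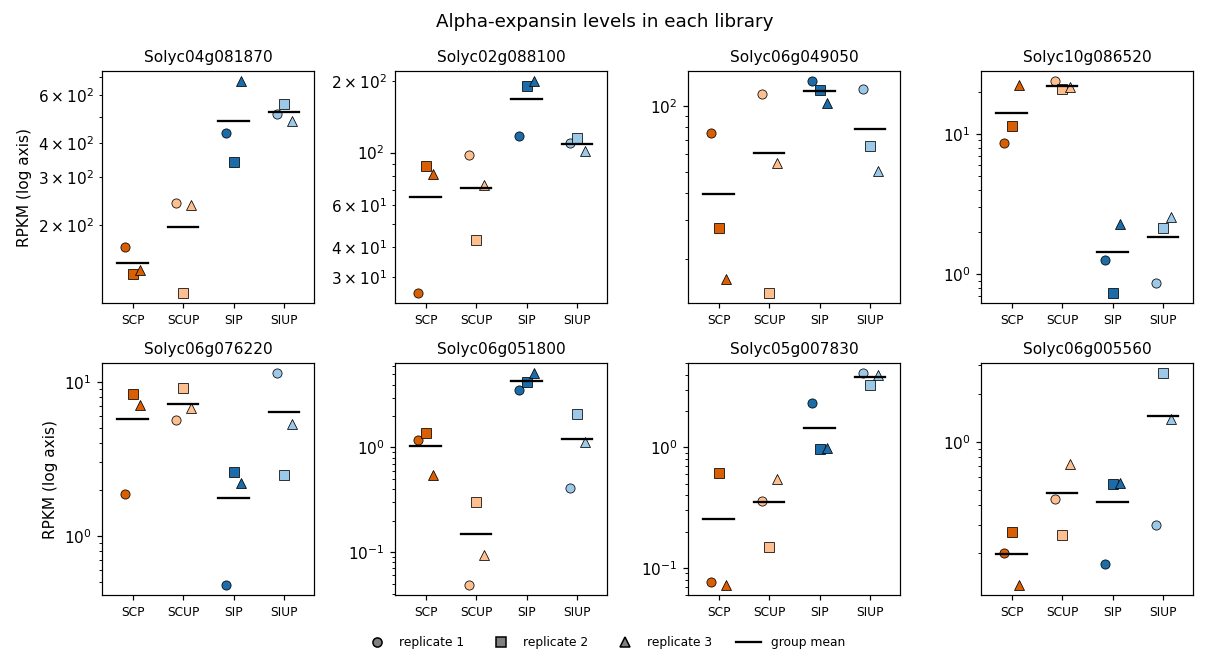
RPKM (log axis, a separate range for each gene) of the 8 alpha-expansin genes in each library of SCP, SCUP, SIP and SIUP styles. Symbols mark the replicate number and bars the mean of 3 libraries. SIP and SIUP libraries do not overlap for Solyc02g088100, Solyc06g051800 and Solyc05g007830, and SCP and SCUP libraries do not overlap for Solyc06g051800 alone. In either direction the groups do not overlap for 32% of all genes tested in SI and 36.3% in SC.

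The family was dominated by Solyc04g081870. This gene held 49.1% to 74.4% of the summed RPKM of the 8 genes and ranked first among them in each of the 12 libraries. Together with Solyc02g088100 and Solyc06g049050 it made up 84.6% to 98.9% of the sum. Among all genes above 0, the mean of Solyc04g081870 was higher than that of 98.9% in SIP, 99% in SIUP, 94.9% in SCP and 96.6% in SCUP. The member with the lowest mean was not the same in all groups. It was Solyc06g005560 in SCP, at 0.199 RPKM, and Solyc06g051800 in SCUP, at 0.149 RPKM. In SIP it was again Solyc06g005560, at 0.420 RPKM, and in SIUP Solyc06g051800, at 1.21 RPKM.

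The summed level of the 8 genes was 278, 270 and 264 RPKM in SCP1, SCP2 and SCP3, inside the range of the 483, 200 and 394 RPKM in SCUP1, SCUP2 and SCUP3. It was 692, 658 and 988 RPKM in SIP1, SIP2 and SIP3, against 760, 753 and 651 RPKM in SIUP1, SIUP2 and SIUP3. SIP1 and SIP2 lay within the range of the SIUP libraries and SIP3 above it. The 3 SCP libraries were close to each other (271 ± 7.27 RPKM, SD, n = 3), while the SCUP libraries were widely spread (359 ± 144 RPKM). The sum was higher in each SI library than in any SC library. Levels were not tested between the species, whose reads were aligned to the genome of cultivated tomato. By the study's counts, a smaller share of read pairs was mapped in SI than in SC.

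**Figure D2:**
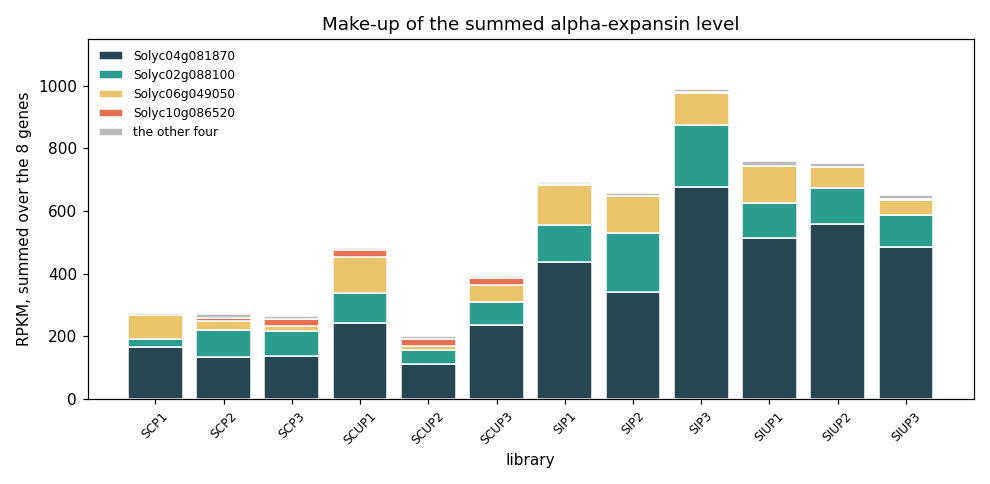
RPKM summed over the 8 alpha-expansin genes in each library, split by gene; the bars start at 0 and the grey part holds the 4 genes with the lowest means over all libraries. Solyc04g081870 is the largest part of every bar, and the sums run from 200 RPKM in SCUP2 to 988 RPKM in SIP3.

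Solyc04g081870, the most abundant member, was at 165, 132 and 136 RPKM in SCP1, SCP2 and SCP3, against 242, 113 and 236 RPKM in SCUP1, SCUP2 and SCUP3. Only SCUP2 lay below the SCP libraries. It was at 437, 341 and 675 RPKM in SIP1, SIP2 and SIP3, against 514, 560 and 484 RPKM in SIUP1, SIUP2 and SIUP3, where the SIP libraries lay on both sides of the SIUP libraries. The log2 difference was -0.37 in SC (95% confidence interval -1.11 to 0.37, adjusted p = 0.495, limma) and -0.16 in SI (-0.72 to 0.41, adjusted p = 0.705, limma). Changes of 2-fold in either direction lie outside the SI interval, and in SC a 2-fold higher level lies outside it but a 2-fold lower one does not.

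Solyc02g088100, the next gene by its mean in all 4 groups, was at 117, 190 and 199 RPKM in SIP1, SIP2 and SIP3, against 110, 115 and 102 RPKM in SIUP1, SIUP2 and SIUP3. The SIP libraries all lay above the SIUP libraries, SIP1 by a small margin. Their log2 difference was 0.59 (95% confidence interval 0.10 to 1.08) with an unadjusted p of 0.0247 and an adjusted p of 0.139 (limma), short of the threshold. In SC the gene was at 25.8, 87.7 and 81.6 RPKM in SCP1, SCP2 and SCP3, against 97.8, 43.1 and 72.9 RPKM in SCUP1, SCUP2 and SCUP3. SCP1 was the lowest of these libraries and the log2 difference of -0.24 over all 6 libraries (adjusted p = 0.812, limma) changed sign without it, to 0.32 (adjusted p = 0.615).

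Solyc06g049050 had the widest spread within groups of the 5 members tested in SC. It was at 75.1, 27.5 and 16.1 RPKM in SCP1, SCP2 and SCP3, against 113, 14.0 and 54.7 RPKM in SCUP1, SCUP2 and SCUP3, an 8.09-fold range among unpollinated libraries alone. The SC groups overlapped over most of their range, and the log2 difference of -0.46 had a confidence interval from -2.41 to 1.5 (adjusted p = 0.773, limma), so that a 4-fold lower level lies inside it. In SI the gene was at 129, 118 and 103 RPKM in SIP1, SIP2 and SIP3, against 119, 65.3 and 50.4 RPKM in SIUP1, SIUP2 and SIUP3. SIUP1 reached the level of the SIP libraries, and SIUP2 and SIUP3 were lower. The log2 difference was 0.66 (95% confidence interval -0.04 to 1.36, adjusted p = 0.206, limma). Without SIUP1 it was 1.01 and passed the test (adjusted p = 0.0178, range over the alternatives 0.0178 to 0.601), in a fit that called 12.7% of all genes tested. SIUP1 was also the SIUP library with the most LAT52, at 488 RPKM against 160 and 161 RPKM in SIUP2 and SIUP3. In SCUP, SCP and SIP, by contrast, the library highest in Solyc06g049050 was the lowest in LAT52. These were SCUP1, SCP1 and SIP1, with LAT52 at 1275, 1860 and 591 RPKM. A relation of Solyc06g049050 to LAT52 was not tested.

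The balance between Solyc06g049050 and Solyc02g088100 differed between replicates in a way that ran across the groups. The ratio of their RPKM was 2.91 in SCP1, 1.16 in SCUP1, 1.10 in SIP1 and 1.08 in SIUP1. In the other 8 libraries it was 0.197 to 0.751, so Solyc06g049050 was the more abundant of the pair in the replicate 1 library of each group and in no other. Solyc06g049050 was itself highest in replicate 1 within all 4 groups. Nothing in the labels says that libraries with the same number were grown or handled together, and across all genes tested the same-numbered P and UP libraries deviated together in some pairs only (correlations across genes of -0.211 to 0.364). This pattern was noticed in the values and has no test.

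**Figure D3:**
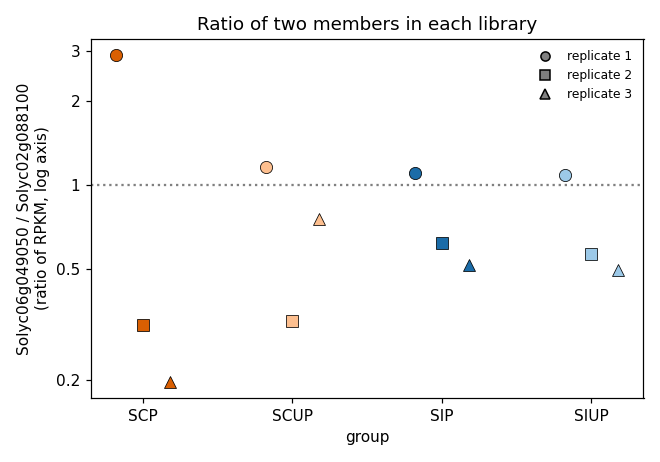
Ratio of the RPKM of Solyc06g049050 to that of Solyc02g088100 in each library, on a log axis, by group and replicate number; the dotted line marks equal levels. The replicate 1 library of each group lies above 1, from 1.08 in SIUP1 to 2.91 in SCP1, and the other 8 libraries lie below it, from 0.197 to 0.751.

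Solyc10g086520 was a gene of moderate level in SC styles and a scarce one in SI styles. In SC it was at 8.67, 11.4 and 22.2 RPKM in SCP1, SCP2 and SCP3, against 23.7, 20.9 and 21.6 RPKM in SCUP1, SCUP2 and SCUP3. The SCUP libraries spanned a 1.13-fold range, SCP1 and SCP2 lay below them and SCP3 lay among them. The log2 difference of -0.74 (95% confidence interval -1.51 to 0.03) had an unadjusted p of 0.0581 and an adjusted p of 0.197 (limma). In SI it was at 1.26, 0.739 and 2.30 RPKM in SIP1, SIP2 and SIP3, against 0.863, 2.14 and 2.57 RPKM in SIUP1, SIUP2 and SIUP3. These SI values rest on 15 to 55 reads per library, the groups overlapped, and the log2 difference was -0.28 (95% confidence interval -1.28 to 0.72, adjusted p = 0.692, limma). All 6 SC libraries were above all 6 SI libraries for this gene, the reverse of Solyc04g081870, for which all 6 SI libraries were above all 6 SC libraries. Neither contrast between the species was tested, and the share of read pairs mapped was lower in SI.

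Solyc06g051800, a scarce gene in unpollinated styles, was at 3.53, 4.19 and 5.11 RPKM in SIP1, SIP2 and SIP3, against 0.408, 2.08 and 1.14 RPKM in SIUP1, SIUP2 and SIUP3. The SIP libraries all lay above the SIUP libraries, on 207 reads against 63 reads in all. The log2 difference was 1.60 (standard error 0.39, 95% confidence interval 0.68 to 2.51) with an unadjusted p of 0.00445 and an adjusted p of 0.069 (limma), close to the threshold and not past it. Without SIUP1 the difference was 1.20 with an adjusted p of 0.0427 (limma), in a fit that called 12.7% of all genes tested. With all 12 libraries in the fit the adjusted p was 0.0426 (limma), where 3% of all genes tested were called. Over all alternatives the adjusted p ran up to 0.221. In SC the gene was at 1.19, 1.36 and 0.542 RPKM in SCP1, SCP2 and SCP3, against 0.0486, 0.304 and 0.0936 RPKM in SCUP1, SCUP2 and SCUP3. Here too each P library was above each UP library, on 60 reads against 9 reads in all. The gene did not reach the minimum level for the SC test. With no filter its log2 difference was 1.22 (standard error 0.27, unadjusted p = 0.00304, adjusted p = 0.0617, limma), again short of the threshold. Separation of this kind was common, since 11.2% of all genes tested in SI and 13.2% in SC had all P libraries above all UP libraries. In either direction the groups were separate for 3 of the 7 members tested in SI, where 32% of all genes were, and for 0 of the 5 in SC, where 36.3% were.

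Solyc05g007830 had the opposite order in SI, at 2.35, 0.969 and 0.984 RPKM in SIP1, SIP2 and SIP3, against 4.11, 3.31 and 4.01 RPKM in SIUP1, SIUP2 and SIUP3. The SIP libraries all lay below the SIUP libraries, as for 20.8% of all genes tested in SI. All SIUP libraries but only SIP1 of the SIP libraries reached the 1 RPKM of the filter. The gene thus met the filter mostly through the group where it was higher. The log2 difference was -1.22 (standard error 0.30, 95% confidence interval -1.94 to -0.51) with an unadjusted p of 0.00496 and an adjusted p of 0.0715 (limma). None of the 14 alternatives in which it was tested brought it past the threshold, with adjusted p-values of 0.0638 to 0.251. In SC it was near the limit of detection, with 10 reads over the SCP libraries and 15 over the SCUP libraries, at 0.0725 to 0.618 RPKM in SCP and 0.149 to 0.551 RPKM in SCUP, and it was not tested.

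Solyc06g076220 and Solyc06g005560 were too thinly covered to be compared closely. The gene model of Solyc06g076220 was only 204 bp long by the RPKM steps, so that 1 read was worth 0.338 to 0.482 RPKM, and the 12 libraries held 1 to 27 reads each. It was at 0.482, 2.60 and 2.20 RPKM in SIP1, SIP2 and SIP3, against 11.4, 2.50 and 5.34 RPKM in SIUP1, SIUP2 and SIUP3, where SIP2 overlapped SIUP2. The log2 difference of -1.56 (95% confidence interval -2.99 to -0.12) had an unadjusted p of 0.0376 and an adjusted p of 0.164 (limma). In SC it was at 1.86, 8.34 and 7.12 RPKM in SCP1, SCP2 and SCP3, against 5.62, 9.15 and 6.76 RPKM in SCUP1, SCUP2 and SCUP3, with a log2 difference of -0.48 (95% confidence interval -1.67 to 0.71, adjusted p = 0.59, limma). Solyc06g005560 held 2 to 36 reads per library. It was at 0.172, 0.540 and 0.549 RPKM in SIP1, SIP2 and SIP3 and at 0.300, 2.68 and 1.39 RPKM in SIUP1, SIUP2 and SIUP3. In SC it was at 0.127 to 0.270 RPKM in SCP and 0.261 to 0.723 RPKM in SCUP. The groups overlapped in both species, and the gene passed the filter in no comparison.

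The spread among replicates limited these comparisons. In SC the standard deviation of Solyc06g049050 within groups was 1.32 on the log2 scale, larger than that of 98.8% of all genes tested and of 99% of the 2782 genes within 0.5 log2 units of its mean level. Solyc02g088100, at 0.81, stood above 96.1% of the 2041 genes of like level. The other SC members tested lay above 76.3% to 92.4% of the genes of like level. In SI the largest spread was that of Solyc06g076220, at 0.95, above 97.3% of 2279 genes of like level, and the abundant genes Solyc04g081870, Solyc02g088100 and Solyc06g049050 lay above 82.7% to 92.4% of theirs. Each of the tested members thus varied among replicates more than the median gene of its level in its species.

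**Figure D4:**
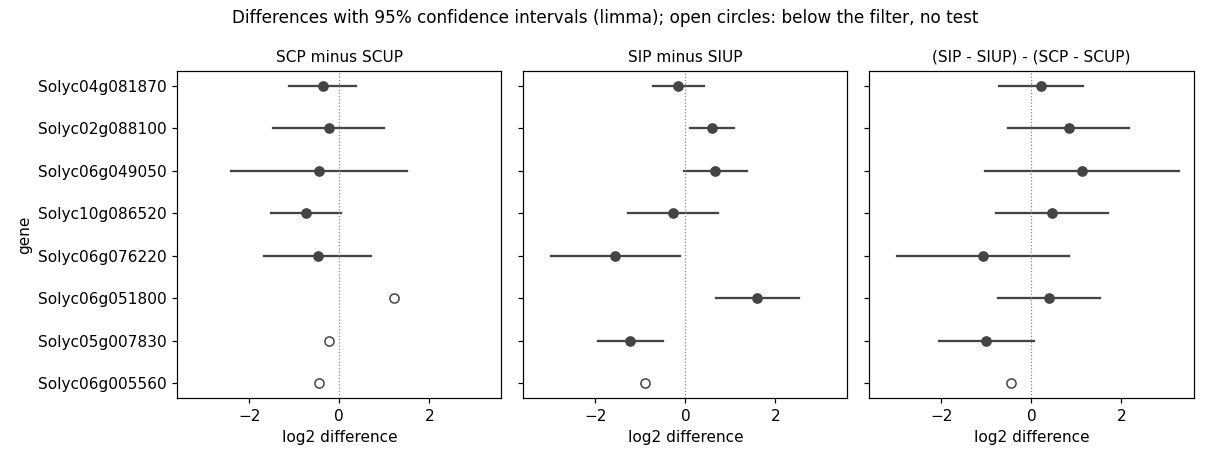
Log2 differences (x axis) of each alpha-expansin gene (y axis) for SCP minus SCUP, SIP minus SIUP and the difference between these responses, on the log2(RPKM + 0.5) scale. Points are limma estimates with 95% confidence intervals, and open circles are genes below the filter, without a test. The interval of Solyc06g049050 in SC runs from -2.41 to 1.5, and the SI intervals of Solyc06g051800 (0.68 to 2.51) and Solyc05g007830 (-1.94 to -0.51) do not reach 0 although neither gene passed after adjustment.

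The study set the incompatible against the compatible response, so the SI response (SIP minus SIUP) less the SC response (SCP minus SCUP) was tested over the 12 libraries. Of the 8 genes 7 were tested and 0 were called, where 1.04% of 20277 genes were called. At an unadjusted p under 0.05 there were 0 members, where 12.9% of all genes tested fell under it. With voom on the recovered reads 0 members were called, where only 0.138% of all genes tested were. The largest difference was that of Solyc06g049050, 1.12 on the log2 scale, from a response of 0.66 in SI and -0.46 in SC. Its confidence interval ran from -1.03 to 3.27 (adjusted p = 0.707, limma). Solyc06g076220 followed at -1.08 (-2.98 to 0.83, adjusted p = 0.673, limma). The difference closest to the threshold by its unadjusted p was that of Solyc05g007830, at -1.0 (95% confidence interval -2.05 to 0.05, unadjusted p = 0.0597, adjusted p = 0.411, limma). For Solyc02g088100 it was 0.83 (-0.52 to 2.18), for Solyc10g086520 0.45 (-0.79 to 1.69) and for Solyc04g081870 0.21 (-0.73 to 1.15). Solyc06g051800, for which the P libraries were the higher ones in both species, had a difference of 0.38 (-0.75 to 1.51), which turned to -0.27 with a pseudocount of 0.1 and to -0.74 by voom on the recovered reads. Solyc05g007830 and Solyc06g051800 were below the minimum level in SC and entered this test through their SI levels, and with a pseudocount of 0.5 RPKM the response of a gene near 0 in SC is compressed. The intervals include 0 and, in all 7 genes, also a 2-fold difference in at least 1 direction.

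Other wall genes passed the test in both species. Their list was picked by the study on these same libraries, so it is no independent evidence of a direction or of the number called. It holds 39 genes besides Solyc06g051800 that the study marked as differentially expressed in either species and annotated with a cell wall term, in the part of the annotation held here, and it was drawn up after values had been seen. In SC 36 were tested, of which 16 rose, 2 fell and 18 did not pass, with a median log2 difference of 0.15. In SI 30 were tested, of which 9 rose, 0 fell and 21 did not pass, with a median of 1.16. For the SI response less the SC response 36 were tested, of which 1 was higher, 7 were lower and 28 did not pass, with a median of 0.33. Of all genes tested, 6.89% were called in SC, 3.65% in SI and 1.04% for the difference. The medians over all genes tested were -0.12, -0.11 and 0.05. Solyc08g080060, which shares the term plant-type cell wall organization with Solyc06g051800, was singled out after its values were seen and is described without a test. It was at 10.2, 3.92 and 7.76 RPKM in SCP1, SCP2 and SCP3, against 0.130, 0.270 and 0.125 RPKM in SCUP1, SCUP2 and SCUP3. In SI it was at 0.400 to 0.534 RPKM in SIP and 0 to 0.0380 RPKM in SIUP. The P libraries were thus above the UP libraries in both species, from lower levels in SI, where SIUP was near 0.

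**Figure D5:**
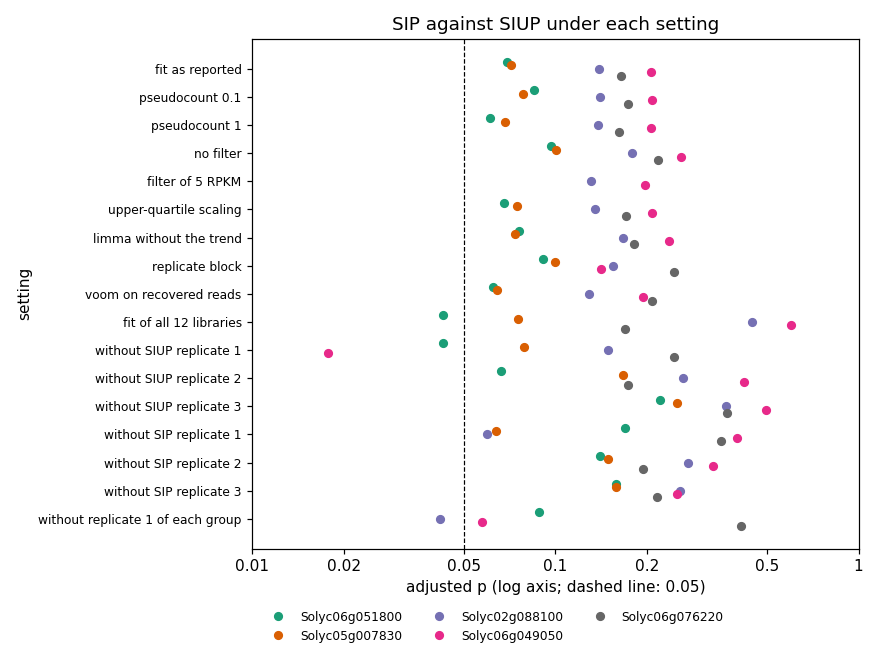
Adjusted p (x axis, log scale; dashed line at 0.05) of 5 alpha-expansin genes in SIP against SIUP, in the fit as reported and under each alternative setting (y axis). Solyc06g051800 passes the line without SIUP1 (0.0427) and with all 12 libraries fitted (0.0426), and Solyc06g049050 without SIUP1 (0.0178). Solyc02g088100 passes it only without replicate 1 of both groups (0.0415), a fit added after the data were seen. Solyc05g007830 and Solyc06g076220 pass it nowhere.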

How the data were processed

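The authors filtered read pairs with Trimmomatic 0.32, aligned them with TopHat2 to the tomato genome, counted reads per gene with HTSeq and deposited RPKM. Neither the genome build nor the handling of reads shared by paralogs was stated in what was read here, and expansin genes may share reads. The sheet with the authors' own fold changes and p-values was not used, nor was the read quality sheet. Of 34725 genes listed, 7 without values were left out.

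Whole reads and gene lengths were recovered from the RPKM steps (tolerance 0.0001, met by 100% of 26562 genes that were above 0 in more than 1 library). Genes reaching 1 RPKM in 3 or more libraries of a fit were tested with limma 3.58.1 in R 4.3.3, on log2(RPKM + 0.5) with an intensity trend, for each species alone and for the difference over 12 libraries. This scale understates changes of low genes. P-values were adjusted over all genes tested, at 0.05. Libraries were compared as unpaired. Alternatives were other pseudocounts (0.1, 1), filters (none, 5 RPKM), upper-quartile scaling, no trend, a replicate block, all 12 libraries, voom and each library left out. The fit without replicate 1 of each group was added after the data were seen. All 8 genes are named. They, the markers and the lists were chosen with earlier results of these data known. Lists planned by gene description could not be applied to the reference table used here, and no sequence is shown. Python 3.11.15 and matplotlib 3.10.9 drew the figures.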

Additional observations from a re-analysis of the deposited data

How the results depend on the processing

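Of 331 single-gene values under an alternative, 315 kept their direction and their side of the threshold. No member was called in SC or for the difference of the responses under any alternative. In SIP against SIUP, 1 gene was called with all 12 libraries in the fit, where 3% of all genes tested were called. With libraries left out, 0 to 2 were called. There were 2 without SIUP1, where 12.7% of all genes tested were called. There was 1 without replicate 1 of both groups, where 4.47% were, in the fit added after the data were seen. The cause was not tested. The difference of the responses of Solyc06g051800 was -0.27 with a pseudocount of 0.1 and -0.74 by voom. With a library left out it was -0.011 to 0.74, and that of Solyc04g081870 was -0.055 to 0.57. That of Solyc10g086520 was 0.0998 to 0.83 (-0.20 without replicate 1 of each group). In SC the difference was -0.56 to 0.32 for Solyc02g088100 (0.59 without replicate 1 of both groups), -1.27 to 0.21 for Solyc06g049050 and -0.83 to 0.12 for Solyc06g076220. In SI it was -0.42 to 0.069 for Solyc04g081870. With a replicate block 0 members were called in each comparison. Same-numbered P and UP libraries deviated with correlations across genes of 0.364, 0.199 and -0.068 in SC and 0.165, -0.211 and 0.0594 in SI, so the numbers were not taken as pairs. Over all genes, 1099 were called in SC, 126 in SI and 125 for the difference with the block, against 1303, 670 and 210 without it. With a library left out, the number of genes called ranged from 256 to 1213 in SC, from 94 to 2311 in SI and, for the difference, from 32 to 389. Depth limits Solyc06g076220, Solyc05g007830 and Solyc06g005560, at 1 to 48 reads per library. It also limits Solyc06g051800, at 1 to 26 reads per SC library and 7 to 84 per SI library.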
